A study of Danio rerio with 15 samples.

Results

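The 27 genes whose deposited name begins with cldn make up the claudin family examined here, out of 23009 genes measured in heads of zebrafish (Danio rerio) embryos. The members were taken by name alone. A member counted as expressed when its value was 10 or more in at least 5 of 15 libraries, which 26 of the 27 met, beside 21902 of all genes. Wild-type embryos from natural matings were collected at 2 days post-fertilization, and each library came from the heads of a pool of 20 embryos. Groups of 5 libraries were given phenol red (a dye, S1 to S5), a guide RNA against ncapg2 (S6 to S10), or that guide RNA with the nuclease Cas9 (S11 to S15). The series was made to look at loss of NCAPG2, a subunit of the condensin II complex that compacts chromosomes. No group received Cas9 without a guide, so the guide RNA group and the phenol red group are the controls, and the Cas9 group differs from the guide group, per the labels, by the nuclease.

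Claudins are small proteins that cross the cell membrane and meet claudins of the next cell in the strands of tight junctions, where they set how tightly an epithelium seals and which ions pass between its cells. In mammals claudin 1, 5, 11, 18 and 19 tighten the seal, whereas claudin 2, 10, 15 and 17 form channels for small ions or water. Zebrafish carry more claudin genes than mammals, partly through duplicated chromosomes and partly through local copies. In the embryo they line the skin, the brain ventricles, the vessels, the ear and the gut.

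The names were checked against the human orthologs in the deposited tables. Of the 27 members, 17 carried a CLDN ortholog, 2 carried CLDND1 (a claudin domain-containing protein that is a relative of the claudins) and 8 had none given. All 27 were matched in the RefSeq GRCz12tu table, 24 by symbol and cldn17, cldnc and cldnh by synonym, and 10 had another claudin-named gene as their next protein-coding neighbour. The genes cldnj, cldne, cldnf and cldna stood in a row, and cldnh, cldnc and cldnb formed another. The gene deposited as cldn17 is called cldn8.3 in that table and lies between cldn8.2 and cldn8.1, so its name may not denote the counterpart of mammalian claudin 17. Outside the rule were 3 genes spelled CLDN in capitals and 10 of other names with a CLDN ortholog, 12 of which were also expressed.

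Depth was 34.97 to 46.46 M recovered reads (M, mega) per phenol red library, 39.79 to 49.3 M per guide library and 41.58 to 48.51 M per Cas9 library. The targeted gene ncapg2 was at 834, 868, 945, 754 and 879.6 in the phenol red libraries, 988, 979, 901, 809 and 885 in the guide libraries and 423, 407, 373, 505 and 432 in the Cas9 libraries. Every Cas9 library was below every control library, with a log2 fold change of -1.09 ± 0.085 (SE) against the guide group and an adjusted p of 0.000318 by limma. Head genes were present in all libraries, with the summed value of 16 neuron genes between 221213 and 277334 and none of those genes at 0 in any library. Before any claudin is described, one feature of the libraries matters: they varied together in sets of 3, each with 1 library per group. These sets were found from the values, by the grouping with the highest summed correlation of deviations from group means, and are written A (S1, S6, S11), B (S2, S7, S12), C (S3, S8, S13), D (S4, S9, S14) and E (S5, S10, S15). In every set the libraries hold the same place in the column order of their groups. The labels do not say what the sets stand for in the experiment.

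**Figure D1:**
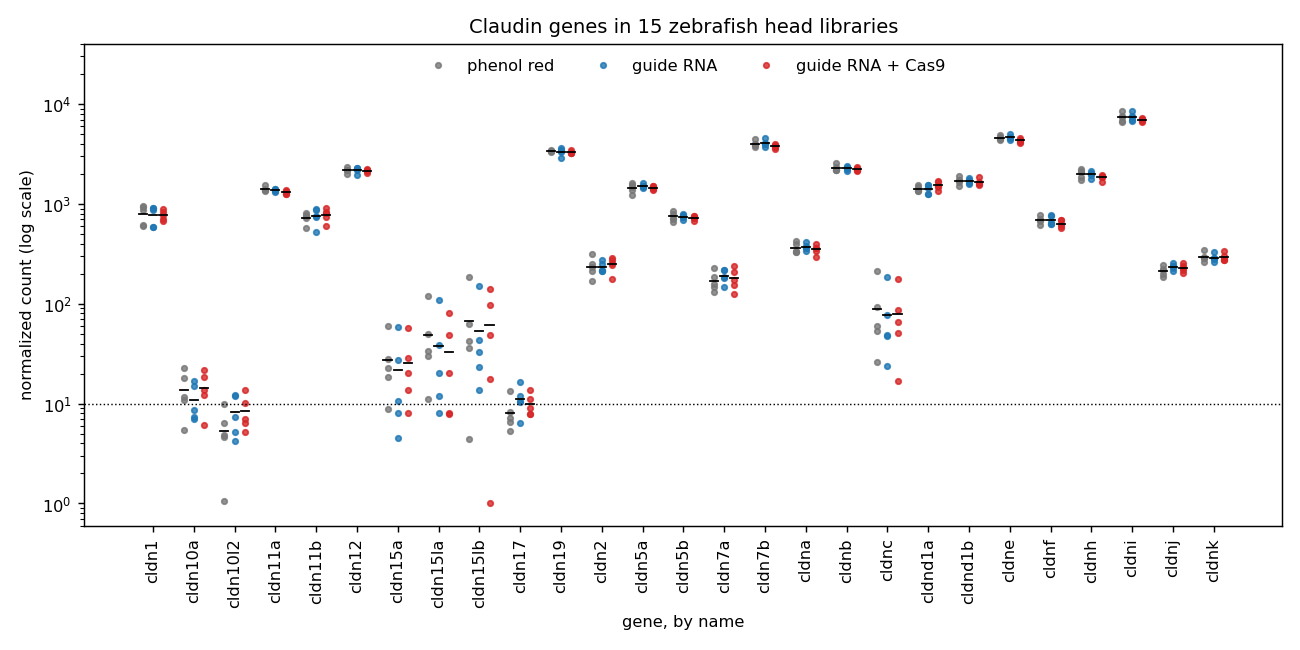
Normalized count of each claudin gene (log axis) in the 15 libraries, 1 point per library, coloured by group, with the group mean as a bar and the expression threshold of 10 as a dotted line. The groups lie on top of each other for most genes. Among expressed genes cldn15a, cldn15la, cldn15lb and cldnc have points spread over more than a factor of 10. So has cldn10l2, which was not expressed by the rule (1.06 to 13.85).

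Values below are the authors' normalized counts per gene, which are not divided by transcript length, so they are compared across libraries and not between genes. By mean over the 15 libraries, 11 expressed claudins were at 1000 or more, 9 between 100 and 1000, and 6 below 100. All 15 libraries held a value of 10 or more for 21 of the 27 members. The member that was not expressed was cldn10l2, with 1.06, 9.91, 4.66, 4.84 and 6.34 in S1 to S5, 12.1, 4.26, 5.19, 12 and 7.34 in S6 to S10 and 6.43, 5.25, 10.1, 6.98 and 13.8 in S11 to S15. It reached 10 in 4 libraries, 1 short of the rule, and the member next above the threshold, cldn17, reached it in 7.

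The claudins of the skin and of simple epithelia differed little between groups, and none of them passed the test in any comparison. In mammals claudin 1 is needed for the water barrier of the skin, and claudin 4 and claudin 7 are widespread epithelial claudins. In zebrafish cldnb marks the lateral line primordium and other epithelia. The deposited ortholog of cldna, cldnb, cldne and cldnf was CLDN4 for each.

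The level of cldne (ENSDARG00000043128) was 4434, 4382, 4929, 4616 and 4723 in S1 to S5, 4722, 4579, 4392, 4565 and 5016 in S6 to S10 and 4037, 4408, 4176, 4413 and 4587 in S11 to S15. The Cas9 libraries S11 and S13 held the 2 lowest values of all 15, while S15 was above 3 of the 5 guide libraries, so that the groups overlapped. For its neighbour cldnf (ENSDARG00000043133), the values were 774, 668, 686, 616 and 713 with phenol red, 759, 635, 659, 633 and 783 with the guide and 683, 636, 595, 580.4 and 691 with guide and Cas9. Here S13 and S14 were lowest, and sets A and E averaged 739 and 729 against 647, 646 and 610 in sets B, C and D.

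The level of cldnh (ENSDARG00000069503), named cldn3c in RefSeq, was 2139, 1747, 2216, 1852 and 2074 in S1 to S5, 2145, 1952, 2017, 1797 and 2018 in S6 to S10 and 1929.9, 1842, 1849, 1675 and 1908 in S11 to S15. All Cas9 libraries lay below 4 of the 5 guide libraries, and guide library S9 lay below 4 of the 5 Cas9 libraries. In the same order cldn7b (ENSDARG00000014047) stood at 4439.8, 3719, 3941, 3859 and 3997, then 4535, 3989, 3951, 3740.2 and 4087, then 3998, 3857, 3728, 3553 and 3701. Its highest values were in S6 and S1 and its lowest in S14, and S11 was above 3 guide libraries.

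The duplicate cldn7a (ENSDARG00000036376) had 157, 131, 227, 184 and 147 in S1 to S5, 180.3, 184, 216, 218 and 148 in S6 to S10 and 153, 171, 239.9, 209 and 126 in S11 to S15. Its high and low values followed library sets: C and D averaged 228 and 204 and E 140, and the highest and the lowest of the 15 libraries (S13 and S15) both belonged to the Cas9 group. For cldn1 (ENSDARG00000040045) the values were 958, 923, 622, 595 and 873, then 879, 919, 586, 593 and 917, then 768, 892, 714, 668 and 838. All 6 libraries of sets C and D, at 714 or less, were below all 9 of sets A, B and E, at 768 or more, whichever group they belonged to.

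The remaining skin and epithelial members were steadier than cldn1 and cldn7a. The lowest, median and highest of the 15 libraries were 294, 361 and 421 for cldna. For cldnb they were 2140.1, 2263 and 2590.3, and for cldni they were 6571, 7172 and 8484. In each of these genes S1 held the highest value. Group means were close, for cldni 7372 ± 722 with phenol red, 7428 ± 663 with the guide and 6968 ± 278 with Cas9 (SD, n = 5 each).

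Claudins of the nervous system and of vessels were also near level across groups. In zebrafish cldn5a is a claudin of the brain ventricle lining, cldn5b is known from endothelium and cldnk from myelinating glia. In mammals claudin 11 seals the myelin of oligodendrocytes and claudin 19 acts in Schwann cells, kidney and eye. The values of cldn5a (ENSDARG00000043716) were 1616, 1546, 1374, 1235 and 1486 in S1 to S5, 1528, 1632, 1459.6, 1516 and 1468 in S6 to S10 and 1519.5, 1452, 1379, 1507 and 1400.1 in S11 to S15. The phenol red library S4 was the lowest of all, and S7 and S1 were the highest.

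In S1 to S5 cldn11a (ENSDARG00000020031) was at 1383, 1399, 1354, 1375 and 1564, in S6 to S10 at 1353, 1375, 1329, 1401 and 1419, and in S11 to S15 at 1245, 1252, 1378, 1327 and 1346. S5 was above, and S11 and S12 below, all other libraries. Its duplicate cldn11b (ENSDARG00000030723) had 573, 721, 784, 807 and 759, then 527, 748, 864, 883 and 757, then 601, 810.4, 828, 906 and 745. Here S1, S6 and S11 were below the other 12 libraries, by set means 567 in A against 754 to 866 in B to E, which makes cldn11b the only expressed claudin with set A wholly lowest (8.15% of all expressed genes had that order).

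The steadiest members with a mean of 50 or more were cldn12, cldn19 and cldn11a, with an SD of log2 values over all libraries of 0.071, 0.076 and 0.077. The median was 0.112, 0.124 and 0.114 over genes of like mean value and 0.155 over all expressed genes. The value of cldn12 ran from 1959.6 in S6 to 2320.1 in S5, with group means of 2178 ± 124, 2179 ± 129 and 2147 ± 72.8 (SD, n = 5 each). For cldn19 the lowest value was 2898 in S6 and the highest 3656 in S7. The lowest, median and highest values of cldn5b were 666, 735 and 853. For cldnk they were 259.7, 285 and 348, with S1 highest.

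The ear claudin cldnj (ENSDARG00000058880), which zebrafish need for normal otoliths, was at 199, 221, 216, 188 and 244 with phenol red, 237, 226, 213, 258 and 238 with the guide and 218, 259, 228, 240.3 and 204 with guide and Cas9. The phenol red libraries S4 and S1 were the 2 lowest, and guide library S9 and Cas9 library S12 were above all phenol red libraries, with the ranges otherwise overlapping.

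The claudin domain-containing genes differed in which libraries were high. The level of cldnd1a (ENSDARG00000104439) was 1465, 1378, 1341, 1549 and 1363 in S1 to S5, 1443, 1249.6, 1551, 1536 and 1259 in S6 to S10 and 1506, 1341, 1655, 1705 and 1474 in S11 to S15. The Cas9 libraries S13 and S14 lay above all 10 control libraries, and the other 3 Cas9 libraries lay among them. For cldnd1b the lowest, median and highest values were 1506, 1657 and 1925, and S1, S6 and S11 were the 3 highest libraries.

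**Figure D2:**
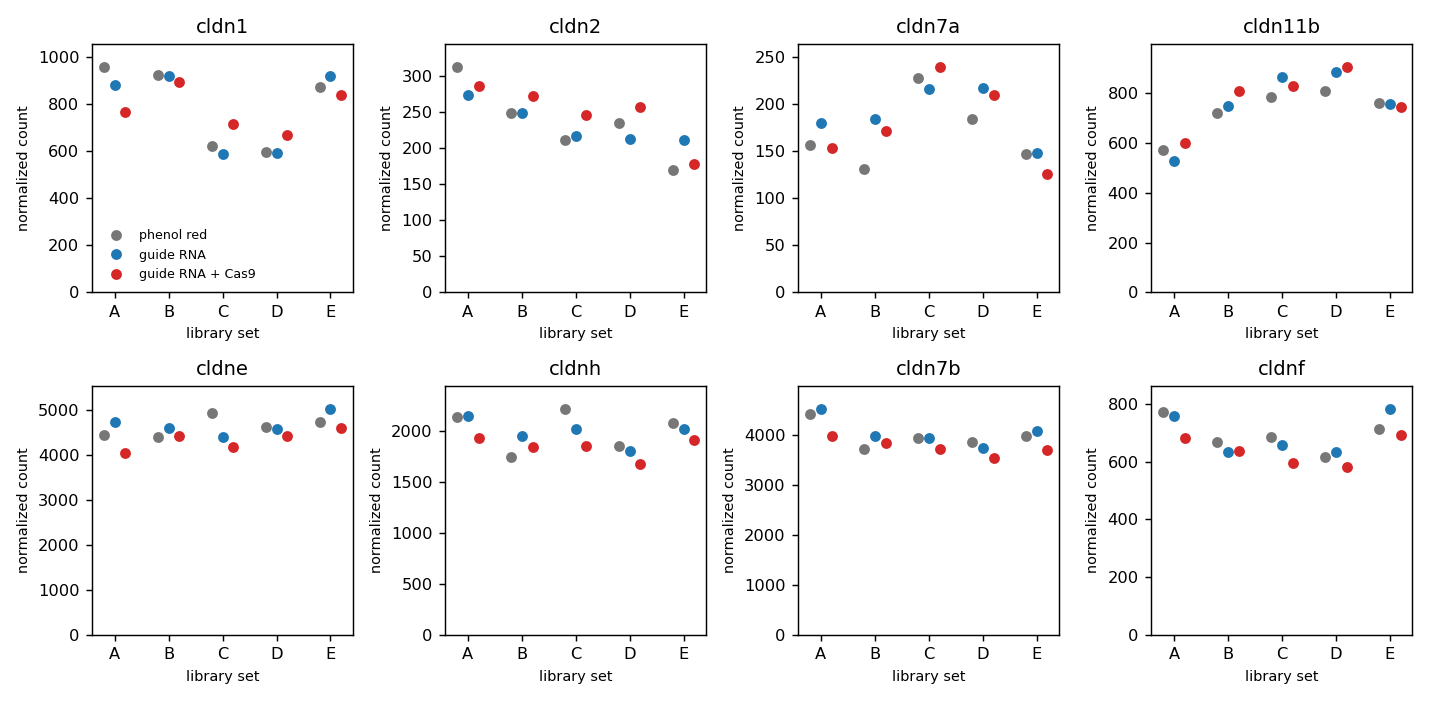
Normalized count of 8 claudin genes (linear axes from 0) by library set A to E, 1 point per library, coloured by group. In the upper row cldn1, cldn2, cldn7a and cldn11b move with the set. In the lower row the Cas9 library of cldne, cldnh and cldn7b is below the guide library of its set in 5 of 5 sets. For cldnf the Cas9 library is above the guide library in 1 of 5 sets. Against phenol red the Cas9 library is higher in 1 of 5 sets for cldne, cldnh and cldn7b and in 0 of 5 for cldnf. The share of all genes with such orders was not counted.

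The expressed members that differed most between libraries were cldn15lb, cldn15la, cldn15a and cldnc, with an SD of log2 values over the 15 libraries of 1.79, 1.30, 1.07 and 1.04. In mammals claudin 2 and claudin 15 make the intestinal lining permeable to small ions. In zebrafish cldn15la is a gene of the gut, where fluid secretion opens the lumen. The value of cldn15a (ENSDARG00000036463) was 59.4, 8.81, 18.7, 23 and 28.1 in S1 to S5, 57.9, 10.7, 27.7, 8.02 and 4.58 in S6 to S10 and 56.9, 28.9, 20.2, 7.98 and 13.8 in S11 to S15. S1, S6 and S11 stood far above the other 12 libraries, and the 3 groups spanned nearly the same range.

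For cldn15la (ENSDARG00000016081) the values were 119, 11, 33.8, 30.2 and 49.8, then 108, 20.2, 38.9, 8.02 and 11.9, then 80.8, 49, 20.2, 7.98 and 7.92. For cldn15lb (ENSDARG00000100844) they were 187, 4.40, 63, 42.4 and 36.2, then 152, 33, 43.2, 23.1 and 13.8, then 140.5, 97.9, 48.4, 1 and 17.8. S1, S6 and S11 again held the 3 highest values of both, and S14 held the lowest value of cldn15lb, a single read. The gene cldnc (ENSDARG00000015955), called cldn3d in RefSeq, followed the same order with 211, 26.4, 92.1, 53.2 and 59.8, then 185, 77.8, 48.4, 24.1 and 47.7, then 178, 87.4, 65.5, 16.9 and 51.5. Highest over lowest library was 12.9 for cldn15a, 15 for cldn15la and 12.4 for cldnc, whereas 16 of the 26 expressed members had a ratio under 1.5.

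**Figure D3:**
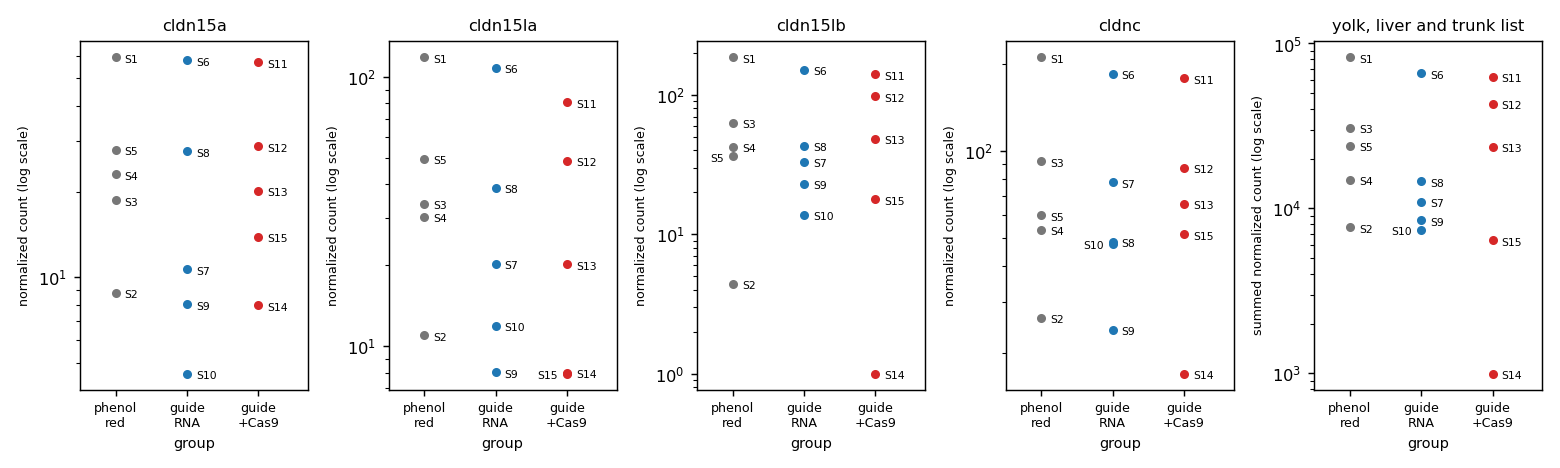
Normalized count of cldn15a, cldn15la, cldn15lb and cldnc and the summed normalized count of 15 yolk, liver and trunk genes (log axes), 1 labelled point per library, by group. In all 5 panels S1, S6 and S11 are the highest library of their group.

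Markers of tissue behind the head moved with these 4 genes. The list of yolk, liver and other trunk genes, with 15 of its 22 symbols in the files, summed to between 7686 and 82543 in the phenol red libraries, 7405 and 66098 in the guide libraries and 995 and 63028 in the Cas9 libraries. S1, S6 and S11 had the 3 highest sums and S14 the lowest, and 13 of the 15 genes had all of S1, S6 and S11 above the other libraries (9.25% of all expressed genes did). Of the 15, fabp1b.1 and ttr were at 0 in at least 1 library. Liver-type fabp10a, a fatty acid-binding protein, was at 2189.7, 17.6, 413, 362 and 285 in S1 to S5, 1483, 228, 409.9, 262 and 174 in S6 to S10 and 1479, 820.0, 417, 22.9 and 234 in S11 to S15.

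Genes of the pharyngeal endoderm and gut did so in part, as did those of the ionocytes. Of 13 endoderm and gut genes in the files, 4 had S1, S6 and S11 above the other 12 libraries, namely cdx1b, fabp2, gata6 and hnf1ba. None of the 13 was at 0 in any library. Of the 4, cdx1b was not expressed by the rule and reached 10 only in S1, S6 and S11 (14.84, 24.29 and 22.95). The share of 9.25% covers expressed genes only, so cdx1b cannot be set beside it. The gut fatty acid-binding gene fabp2 was at 703, 272, 398, 276 and 339, then 851, 287, 337, 223 and 204, then 563, 389, 263, 180.5 and 190.0. By contrast foxa3, a factor of endoderm along the whole tract, stayed between 458 and 558. The sum of the 12 expressed genes was 3809 to 4783 with phenol red, 3689 to 4624 with the guide and 3533 to 4389 with Cas9. Of 20 ionocyte genes (ion-transporting cells of the skin), 4 had S1, S6 and S11 above the other 12 libraries (9.25% of all expressed genes did). These were atp1a1a.4, ca15a, rhcgl1 and slc12a10.3, and none of the 20 was at 0. The opposite order, with S1, S6 and S11 below the other 12 libraries, was held by atp1a1a.1 and atp6v1aa (8.15% of all expressed genes had it). Much of the summed value of the 20 genes came from atp1a1a.1 and atp6v1aa. That sum was lowest in the same libraries, at 38305.5, 41691.8 and 45344.5 in S1, S6 and S11 against 48679.6 to 52979.9 elsewhere. With each of the 20 genes weighted alike, the order was reversed. The mean log2 deviation from the gene means was highest in S1, S6 and S11, at 0.179, 0.173 and 0.129 against -0.237 to 0.054 elsewhere. The ammonium transporter gene rhcgl1, 1 of the 20, was at 678, 867 and 412 in S1, S6 and S11 and between 40.7 and 206 elsewhere. The mean deviation leans heavily on rhcgl1, and it was not computed without this gene. Of the 9 remaining lists 4 held 1 gene each with S1, S6 and S11 above the other 12 libraries, and 5 held none. The part of trunk, gut or ionocyte tissue in the claudin values was not tested. In bulk RNA, fewer cells of a type and less RNA per cell cannot be told apart.

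Of the remaining members, cldn2 (ENSDARG00000044387) had 314, 249, 212, 235 and 169 in S1 to S5, 275, 249, 217, 213 and 212 in S6 to S10 and 287, 273, 247, 257 and 178 in S11 to S15. Its set means ranged from 292 in A to 186 in E, and S1, S6 and S11 were above the other 12. In total 6 of 26 expressed claudins had that order (cldn15a, cldn15la, cldn15lb, cldn2, cldnc and cldnd1b), as did 9.25% of all expressed genes. The low member cldn10a (ENSDARG00000058937) had 18, 5.50, 11.7, 23 and 10.9, then 14.9, 17.1, 8.65, 7.02 and 7.34, then 18.4, 6.12, 12.1, 21.9 and 13.8, and cldn17 (ENSDARG00000099950) had 5.30, 6.61, 8.16, 13.3 and 7.25, then 10.27, 10.7, 16.4, 12 and 6.42, then 13.8, 7.87, 11.1, 8.98 and 7.92. Both lay near the threshold of 10, where a few reads move a value, and neither had separate groups.

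**Figure D4:**
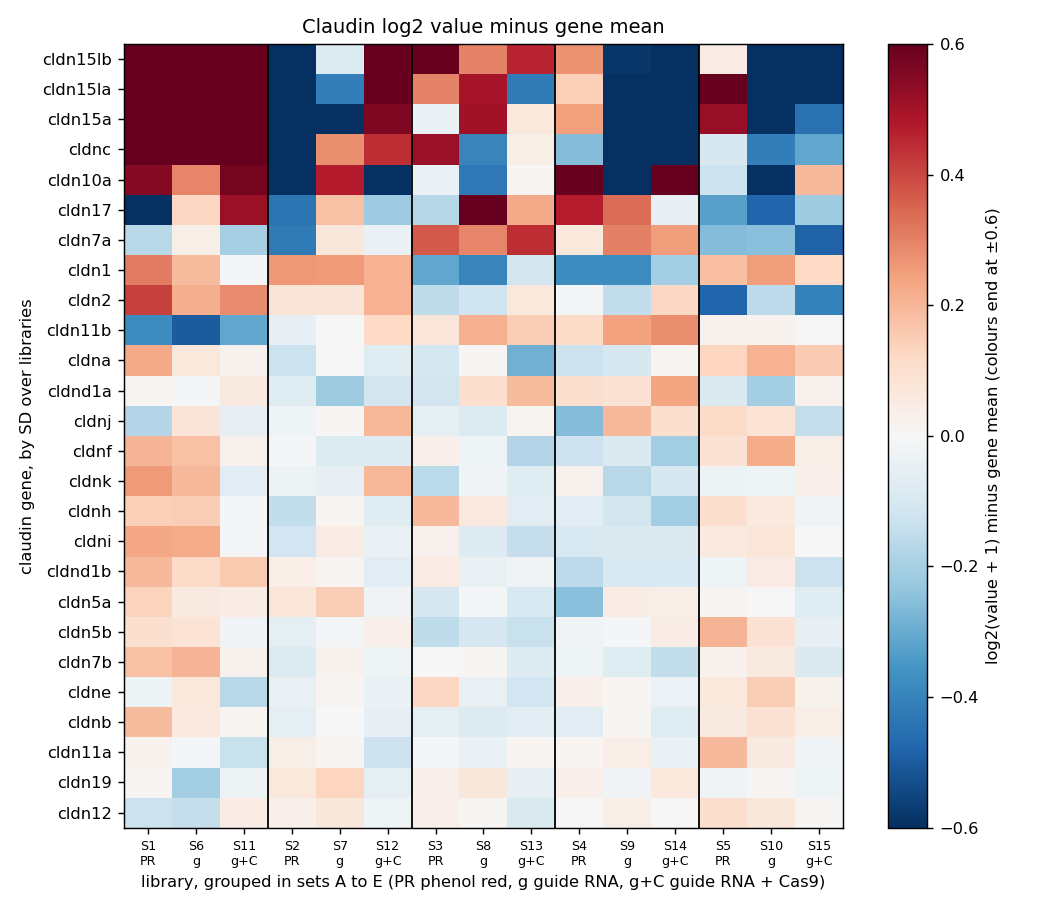
Heat map of the 26 expressed claudins (rows, by SD over libraries) in the 15 libraries (columns, in sets A to E), with colour for log2(value + 1) minus the gene's mean, ending at ±0.6. The first 4 rows are red in all 3 libraries of set A, and cldn1, cldn7a and cldn11b change by set.

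Across the family, much of the variation between libraries of a group went with the library sets. Of the variation within groups, the sets accounted for a median of 69.4% over the 26 expressed claudins and 65.2% over all expressed genes, with 94.6% for cldn11b, 88.2% for cldnf and 88.0% for cldn1. Since the sets were chosen because their libraries were alike, these shares are a description and not a test. Group accounted for a median of 6.13% of the total variation in claudins and 6.85% in all genes. That share has another base than the share of the sets, so their sizes cannot be compared directly.

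The first comparison asked what adding Cas9 to the guide changed. Of the 26 claudins tested none was called (0.00463% of the 21590 genes tested were), and limma's adjusted p was 1 for each. None reached an unadjusted p under 0.05, which 0.917% of all genes did, and none had groups that did not overlap (0.232% of all genes). On the recovered reads edgeR called 0 with 0 at an unadjusted p under 0.05 (0.866% of all genes), and DESeq2 called 0 with 1 (0.838%). The authors' deposited table called 0 of 27. The median log2 fold change of the claudins was -0.041, with 8 above and 18 below 0, beside a median of 0.0018 and 50.9% above 0 over all genes.

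The 4 claudins with the smallest p there were cldne at -0.11 ± 0.055, cldnh at -0.11 ± 0.059, cldn7b at -0.11 ± 0.059 and cldnd1a at 0.13 ± 0.084 (log2 fold change ± SE, 5 against 5 libraries). Within sets cldnd1a was higher with Cas9 in 5 of 5, and cldne, cldnh and cldn7b in 0 of 5, as was cldn5a. The share of all genes with such an order was not counted, and the sets were found from these same values. The highest fold changes beside cldnd1a were cldn15a at 0.46 ± 0.66 and cldn10a at 0.35 ± 0.36, and the lowest were cldn15lb at -0.33 ± 1.17, cldn17 at -0.13 ± 0.29 and cldn15la at -0.13 ± 0.81. The standard error of each of these 5 exceeded its difference. The sign of cldn15la changed without S6 (0.40), S8 (0.033), S14 (0.22) or S15 (0.22). That of cldn15lb changed without S6 (0.17) or S14 (0.65), and also with all libraries by DESeq2 (0.21) and edgeR (0.21), and it was 0.20 in the authors' deposited table. For cldn17 it changed without S8 (0.012).

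The width of the intervals differed among members. For 20 of the 26 claudins the 95% interval of the fold change lay within 1.5-fold of no change (85.6% of all genes). The 6 others, namely cldn10a, cldn15a, cldn15la, cldn15lb, cldn17 and cldnc, had intervals reaching beyond 1.5-fold.

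**Figure D5:**
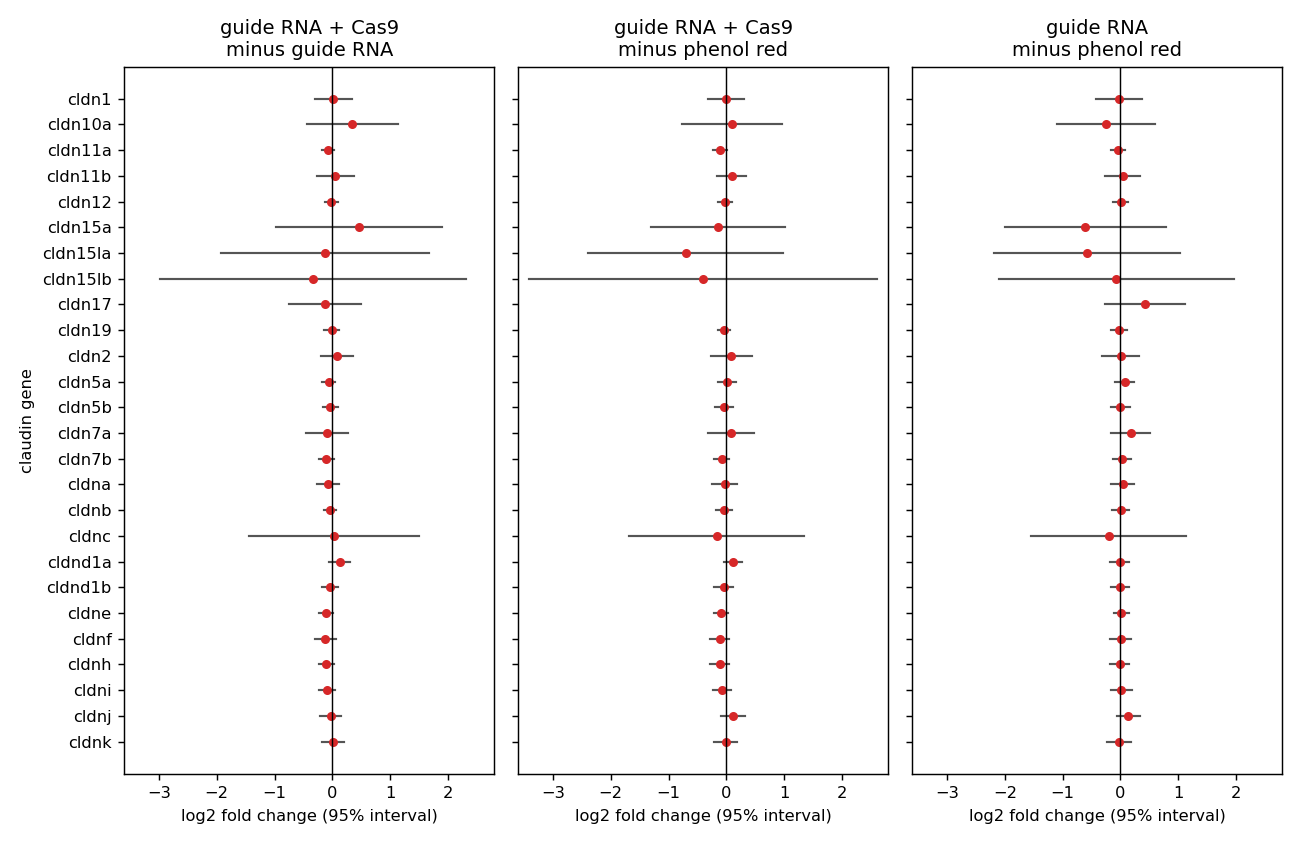
Log2 fold change with its 95% interval (limma) for each tested claudin in the 3 comparisons; the vertical line is no difference. Every interval crosses 0, and those of cldn15a, cldn15la, cldn15lb and cldnc are the widest.

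The second comparison set the Cas9 group against phenol red, so guide and nuclease differed together, and it shares the Cas9 libraries with the first. Of 25 claudins tested (cldn17 fell under the filter) limma called 0, with 0 at an unadjusted p under 0.05 (0.00463% and 2.29% of 21580 genes), and the adjusted p was 1 for each. None had separate groups (0.426% of all genes). Both edgeR and DESeq2 called 0 with 0 at an unadjusted p under 0.05 (2.39% and 2.62% of all genes), and the authors' deposited table called 0. Claudins had a median log2 fold change of -0.041, with 7 above and 18 below 0, beside 0.0049 and 52.2% above 0 over all genes.

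Here the 4 smallest p belonged to cldn11a at -0.11 ± 0.058, cldne at -0.09 ± 0.058, cldnh at -0.12 ± 0.073 and cldnf at -0.12 ± 0.076. The highest fold changes were cldnd1a at 0.11 ± 0.073, cldnj at 0.11 ± 0.096 and cldn10a at 0.09 ± 0.40. At the other end were cldn15la at -0.70 ± 0.76, cldn15lb at -0.40 ± 1.32 and cldnc at -0.17 ± 0.67. Without phenol red library S1, the highest for all 3, cldn15la stood at -0.29, cldn15lb at 0.15 and cldnc at 0.23, and without S14 cldn15lb stood at 0.58 and cldnc at 0.28. For cldn10a the sign changed without S2 (-0.17), S11 (-0.015) or S14 (-0.076). The interval lay within 1.5-fold for 20 of 25 claudins (84.9% of all genes).

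The third comparison set the guide group against the dye group, with no nuclease in either. Of 26 claudins tested limma called 0 and none was at an unadjusted p under 0.05 (0% and 1.04% of 21601 genes), with an adjusted p of 1 for each. None had separate groups (0.204% of all genes). By DESeq2 and by edgeR the counts were again 0 called and 0 at an unadjusted p under 0.05 (1% and 1.01% of all genes). The authors' deposited table called 0. The median was -0.0019 with 13 genes on each side of 0, beside 0.0079 and 54.7% above 0 over all genes. The 4 smallest p were those of cldnj at 0.14 ± 0.091, cldn17 at 0.42 ± 0.32, cldn7a at 0.17 ± 0.16 and cldn5a at 0.07 ± 0.074, of which the first 3 also had the highest fold changes. The lowest were cldn15a at -0.61 ± 0.64, cldn15la at -0.58 ± 0.73 and cldn10a at -0.25 ± 0.39. The interval lay within 1.5-fold for 20 of 26 claudins (84.6% of all genes).

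All 15 libraries were then fitted together. Any difference among the 3 groups was tested by an F test in limma and edgeR and by a likelihood ratio test in DESeq2. Each called 0 of 26 claudins, with 0 at an unadjusted p under 0.05. Of 21902 genes limma called 0.00457%, and 1.14% had an unadjusted p under 0.05, beside 1.11% by edgeR and 1.32% by DESeq2. The Cas9 group against the mean of both controls likewise had 0 called by limma (0.00457% of all genes), edgeR and DESeq2. At an unadjusted p under 0.05 limma counted 1, cldne, with a log2 difference of -0.10 ± 0.047 and an adjusted p of 1 (1.64% of all genes, 0.959% in that direction). By edgeR and by DESeq2 the count was 2 of 26 each, beside 1.64% and 1.67% of all genes. Claudins had 9 fold changes above and 17 below 0, with a median of -0.034, and 51.9% of all genes were above 0.

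Among tight junction proteins other than claudins none passed the test. The list held 47 of 53 symbols, covering scaffolds such as tjp1a (ZO-1), the membrane proteins oclna and oclnb (occludin), the JAM adhesion proteins, the angulins and the polarity complexes. In each of the 3 comparisons limma called 0 of 47. At an unadjusted p under 0.05 there were 2 higher and 0 lower for Cas9 against guide (0.917% of all genes in either direction), 2 and 2 for Cas9 against phenol red (2.29%), and 0 and 0 for guide against phenol red (1.04%). In the first 2 comparisons that was a larger share of the 47 than of all genes. The medians were 0.020, 0.028 and 0.0094. The 2 smallest p in the first comparison were those of pard6b at 0.23 ± 0.093 and mpp5a at 0.14 ± 0.062, both of the apical polarity complexes. In the second they were those of mpp5b at 0.22 ± 0.092 and the scaffold magi1a at 0.20 ± 0.086. In the third they were those of pard6b at -0.15 ± 0.083 and magi2b at 0.12 ± 0.072. All had an adjusted p of 1 by limma.

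Markers of the tissues that carry the claudins are set beside them. Of 35 epidermis and periderm genes limma called 0 in each comparison, with medians of -0.033, -0.040 and -0.0046 and 11, 6 and 15 genes above 0. At an unadjusted p under 0.05 there were 2, 1 and 1 of the 35, all lower, beside 0.917%, 2.29% and 1.04% of all genes in either direction, led by evpla at -0.15 ± 0.069 and scel at -0.15 ± 0.068 for Cas9 against guide. These medians lay on the same side of 0 as those of the claudins in the first 2 comparisons, and their part in the claudin values was not tested. Of 20 endothelial genes 0 were called, with medians of 0.021, -0.048 and -0.060 and 1, 0 and 0 at an unadjusted p under 0.05 (the same shares of all genes apply). Of 12 oligodendrocyte and myelin genes 0 were called, with medians of 0.0033, -0.024 and 0.014 and 1, 0 and 1 at an unadjusted p under 0.05. Other lists also had 0 called. Medians of the ionocyte list were -0.040, -0.069 and -0.0032, on the same side of 0 as the epidermal ones. They were 0.0052, -0.060 and -0.062 for endoderm and gut, and 0.010, 0.084 and 0.0091 for ear and lateral line. For neural progenitors and ependyma they were 0.034, 0.050 and 0.00049, and for differentiated neurons 0.028, 0.079 and 0.029. Lens genes had 0.125, 0.015 and -0.105, and retina and pigment epithelium genes 0.127, 0.061 and -0.018. At an unadjusted p under 0.05 limma counted 2, 0 and 1 of 20 lens genes and 1, 0 and 3 of 19 retina genes. Yolk, liver and trunk genes had medians of -0.14, -0.37 and -0.33. The part of these lists in the claudin values was not tested.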

How the data were processed

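Total RNA from pooled embryo heads was sequenced as stranded, poly(A)-selected libraries, per the labels' protocols. The tools named in the submitters' processing notes are STAR and HTSeq for alignment and counting, DESeq2, and bcl2fastq, cutadapt and Trim Galore. Versions, settings, genome build and counting strand are not given in the sources at hand. The authors deposited 3 tables, 1 per pair of groups, with a normalized signal per gene and library (a gene count divided by a size factor), log2 fold changes and their errors, a test score and p-values. A library's group followed from which 2 tables held its column, and columns carry no replicate number. The pools are biological replicates per the series design, and p-values refer to their spread. Dividing a library by its smallest value above 0 gave whole reads for 100% of values within 0.001 of a read.

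The main test was limma 3.58.1 (R 4.3.3; trend, robust moderation) on log2(value + 1), fitted over all genes that reached 10 in 5 or more of the libraries compared, with Benjamini-Hochberg adjustment over all of them and a threshold of 0.05. Fold changes are differences of mean log2(value + 1), and for low, variable genes they can lie above or below those of the count models. Intervals are at the 95% level. The scripts were tested on simulated counts with known fold changes. Libraries were drawn independently there, without library sets, so that test does not cover data with such sets. Alternatives were edgeR 4.0.16 and DESeq2 1.42.0 on recovered reads, rescaling by trimmed means, other pseudocounts and filters, 1 fit of all libraries, library sets as a block and each library left out. Removing set A and adding claudins of other names were chosen after seeing the data. The members and gene lists were chosen with earlier results of these data known. Statistics are given for the claudins with the 4 smallest p and the 3 highest and 3 lowest fold changes per comparison. They are also given for the 5 most and 3 least variable members with a mean of 50 or more. Genes with the 2 smallest p are named for tight junction partners in each comparison, and for epidermis only for Cas9 against guide. Values of fabp2, foxa3, fabp10a and rhcgl1 were chosen after they were seen. Near-identical claudin copies could share reads, so the values of such genes are uncertain. No sequence is shown.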

Additional observations from a re-analysis of the deposited data

Results flagged for a closer look

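Among the 78 groups of 5 libraries (26 expressed claudins in 3 groups), 3 held a library whose gap to its nearest neighbour took up more than 0.71 of the group's range; chance flags about 1 in 20 such groups, and here 3.8% were flagged. In the phenol red group, cldn11a was at 1564 in S5 and next at 1399. In the guide group, cldn15lb was at 152 in S6 and next at 43.2, and S6 also held that group's highest sum of yolk, liver and trunk genes, 66098. In the Cas9 group, cldn19 was at 3486 in S14 and next at 3282. The 3 flags fell on 3 genes and 3 libraries.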

How the results depend on the processing

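No claudin was called in any of the 118 alternatives, by limma, edgeR or DESeq2. These were run over the 3 comparisons, the test for any difference among the groups and the contrast with both controls. The medians moved by no more than the spread of library medians in all 66 alternatives. That spread was 0.049, 0.072 and 0.080 in the 3 comparisons, more than the size of the medians, so a change of sign could also pass. The sign changed in 0, 1 and 7 of 22 alternatives. With 1 library left out at a time the median was -0.065 to -0.021 for Cas9 against guide, -0.065 to 0.0074 for Cas9 against phenol red (above 0 without S1) and -0.031 to 0.041 for guide against phenol red. Of 26 named gene and comparison pairs, 20 kept their sign in every alternative, and the other 6 (cldn10a, cldn15la, cldn15lb, cldn17 and cldnc) did not. The count of expressed claudins was 21 to 27 under other thresholds.

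The library sets are a hint from the values that also follows the column order, and not a pairing given by the design. With the sets as a block limma called 0 claudins in every comparison, with a smallest adjusted p of 0.985, 0.543 and 0.705 in the 3 comparisons. At an unadjusted p under 0.05 it counted 5 for Cas9 against guide (cldnd1a, cldnh, cldnf, cldn7b and cldne, 4.55% of all genes), 2 for Cas9 against phenol red (9.12%) and 0 for guide against phenol red (7.71%). In the F test and the contrast with both controls it counted 3 (8.16%) and 6 (8.67%). Without the block these shares of all genes were 0.917%, 2.29%, 1.04%, 1.14% and 1.64%, so the main fit put fewer genes of any kind under that bound. The lowest correlation of deviations within a set was 0.772 in A and 0.127 in B. The block called 3, 2 and 4 genes of all in the 3 comparisons, where 1, 1 and 0 were called without it.

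With S1, S6 and S11 removed, 0 claudins were called and the 3 medians were -0.058, -0.035 and 0.0066. At these depths, low counts limited mainly cldn10a, cldn17 and cldn10l2; the spread between pools was widest for cldn15a, cldn15la, cldn15lb and cldnc.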
